A study of Mus musculus with 4 samples.

Results

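The genes described here encode the core of bone morphogenetic protein (BMP) and transforming growth factor beta (TGF-beta) signalling. They were chosen by symbol: BMPs, growth differentiation factors (Gdf), TGF-betas and activin beta subunits, the BMP, activin and TGF-beta receptors, the Smads, the Smurfs, and secreted antagonists such as Nog, Chrd and Grem1. The rule took 54 of the 21937 genes listed in the deposited table and used no measured value, though earlier results of these data were known. RNA sequencing had been run on sympathetic ganglia (superior cervical and stellate) from mice aged 60 days. Each of the 4 samples was 1 pool, and no genotype had another. The Hand2 mutant carried Hand2flox/del and pooled 16 ganglia from 4 mice, and the Hand2 control carried Hand2flox/+ and also pooled 16 ganglia from 4 mice. The Gata3 mutant carried Gata3flox/flox and pooled 32 ganglia from 8 mice, and the Gata3 control carried Gata3flox/+ and pooled 16 ganglia from 4 mice. The strain labels read B6.129/SVJ for the Hand2 line, B6.126/SV129 for the Gata3 mutant and B6.129/SV129 for the Gata3 control. All groups carried DbhCreERT2 (C57BL/6P1DbhCreERT2 in the labels), in which the dopamine beta-hydroxylase promoter drives a Cre recombinase that needs tamoxifen, and all received tamoxifen for 10 days. Cre was thus directed to noradrenergic cells, while the RNA also came from the glia, vessels and connective tissue of the ganglion. The labels do not say in which cells the del allele of the Hand2 mutant was deleted, and the controls carried Cre and a floxed allele too. The series' design text describes the Gata3 mutant ganglia as rudiments whose remaining cells had kept Gata3.

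BMPs and TGF-betas are secreted dimers that bring together type I and type II receptor kinases at the cell surface. BMP-type receptors phosphorylate Smad1, Smad5 and Smad9, while TGF-beta and activin receptors phosphorylate Smad2 and Smad3. The Smads of both branches pair with Smad4 and act in the nucleus. BMPs from the dorsal aorta start the noradrenergic programme in the sympathetic chain of the embryo, upstream of Hand2 and Gata3, and BMPs promote dendrite growth of sympathetic neurons in culture.

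The table sets 2 columns of expression values against each other, without saying which line they come from or whether lines were pooled. The column set against the control is called the mutant side, and the column headed control the control side. No genotype was assigned to either side from its values, and a total per gene counts floxed and remaining exons together. The deposited values have no stated unit, and all those given here are whole numbers. They are called normalised after their column naming, but whether they were scaled is not known, so no counting error is given. Since each side is 1 column, differences cannot be set against replicate error, and no p-value was computed. "Higher" and "lower" describe these columns, and fewer cells of a type cannot be told apart from less RNA per cell. Over the whole table the mutant side summed to 19135221 and the control side to 19343986. Hand2 had 2001 on the mutant side and 4749 on the control side (log2 ratio -1.25), and Gata3 had 1050 on the mutant side and 1105 on the control side (log2 ratio -0.07). Markers of skeletal muscle summed to 54 on the mutant side and 1386 on the control side, and those of sensory neurons, of which Prdm12 was listed at 0, to 197 on the mutant side and 803 on the control side. Pericyte and smooth muscle markers summed to 1168 on the mutant side and 1429 on the control side, and adipocyte markers to 2411 on the mutant side and 2201 on the control side. Of the adipocyte markers Cfd had 903 on the mutant side and 457 on the control side, and the other 4 summed to 1508 on the mutant side and 1744 on the control side. The sympathetic neuron markers Th, Dbh, Slc6a2 and Slc18a2 summed to 252472 on the mutant side and 300266 on the control side. All 4 had log2 ratios below 0, as had 5878 of the 12043 genes of the table with a mean of at least 50. Slc6a2 had the widest gap of the 4, with 95865 on the mutant side and 125271 on the control side (log2 ratio -0.39). The log2 ratios of Th, Dbh and Slc18a2 were -0.09, -0.21 and -0.11. For genes with a mean of at least 2000 the central 95% of log2 ratios ran from -0.28 to 0.24. Slc6a2 lay below that range, and Th, Dbh and Slc18a2 lay within it.

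Of the pathway genes only Smad6 passed the limit of 1.5-fold set for a difference. A gene was counted as higher or lower when the mean of both sides reached 50 and the ratio, after adding 1 to each value, reached 1.5-fold. Of the 54 genes, 29 reached that mean. Of these 29, 1 was higher on the mutant side (3.45%) and 0 were lower, where 0.681% of the 12043 genes of the table with such a mean were higher and 1.47% were lower. Smad6 encodes an inhibitory Smad. The 29 had a median log2 ratio of 0.02, against 0.00 over all 12043 genes, and 23 of them (79.3%) had a log2 ratio under 0.32 in size, against 90.0% of the 12043 genes. At 2-fold 0 of the 29 were higher or lower, where 0.482% of the 12043 genes were. The authors' deposited table gives 0 of the 54 genes an adjusted p under 0.05, where 0.365% of all genes with a p have one, and the adjusted p of each of the 51 genes above 0 is 1.

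Sequences before the transcription start are shown for Smad6 and for the 2 paralogous BMP type I receptors, Bmpr1b (log2 ratio -0.40) and Bmpr1a (log2 ratio 0.10). Each is the 250 bases upstream of the start in RefSeq (GRCm38.p6), on the gene's own strand. For Bmpr1b the table of windows holds 3 starts, and the farthest upstream of these is shown. It lies 187161 bases inside the gene as annotated in GENCODE M21 (GRCm38), whose farthest upstream start has no window in that table. The start of Bmpr1a lies 141 bases inside its annotated gene, and that of Smad6 at the upstream end of its own. Capitals mark matches on either strand to CATCTG, an E-box word bound by basic helix-loop-helix factors, to AGATAA or TGATAA, bound by GATA factors, or to GGCGCC or CAGACA, bound by Smads. The windows are chr3:141982265-141982514 for Bmpr1b, chr14:34502547-34502796 for Bmpr1a and chr9:64022060-64022309 for Smad6, all on the minus strand.
Bmpr1b: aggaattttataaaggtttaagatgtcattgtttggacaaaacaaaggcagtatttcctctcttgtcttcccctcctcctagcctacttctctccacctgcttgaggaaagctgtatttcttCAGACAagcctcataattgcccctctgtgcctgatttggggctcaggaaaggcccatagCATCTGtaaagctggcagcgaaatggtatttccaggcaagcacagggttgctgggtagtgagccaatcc
Bmpr1a: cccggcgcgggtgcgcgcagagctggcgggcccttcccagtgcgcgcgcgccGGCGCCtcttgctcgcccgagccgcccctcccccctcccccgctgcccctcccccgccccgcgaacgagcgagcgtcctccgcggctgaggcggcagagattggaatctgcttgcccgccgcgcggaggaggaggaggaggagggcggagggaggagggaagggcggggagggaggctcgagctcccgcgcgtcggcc
Smad6: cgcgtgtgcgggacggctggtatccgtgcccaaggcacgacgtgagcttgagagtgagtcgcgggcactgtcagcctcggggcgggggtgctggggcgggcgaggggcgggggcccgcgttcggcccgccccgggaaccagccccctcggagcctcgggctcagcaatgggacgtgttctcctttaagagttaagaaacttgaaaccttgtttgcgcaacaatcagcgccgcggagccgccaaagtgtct

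The Bmpr1b window held 1 CATCTG and 1 CAGACA, and the windows of its other starts held no match. The Bmpr1a window held 1 GGCGCC and no other match, and the Smad6 window held none of these words. Among all 32851 RefSeq windows of this length, 14.4% held CATCTG, 9.99% AGATAA, 7.94% TGATAA, 9.59% GGCGCC and 17.1% CAGACA. The Bmpr1b window was 46.8% G and C, against 78.8% for Bmpr1a and 66.8% for Smad6. A match is a description of letters, and binding was not measured. RefSeq windows were found for 38 of the 54 genes.

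Among the BMP and Gdf ligands, Bmp3 differed most of those with a mean of at least 50. Bmp3, a BMP that antagonises bone-forming BMPs, had 992 on the mutant side and 761 on the control side, a ratio of 1.30 (log2 ratio 0.38). The authors' deposited table gives Bmp3 an unadjusted p of 0.0466. As a yardstick for ratios, genes were compared with all genes in the same range of mean value, which describes spread across genes and is not a replicate error. For genes with a mean of 500 to 1000 the central 95% of log2 ratios ran from -0.34 to 0.29, and Bmp3 lay above it.

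Bmp4 and Bmp2, studied as inducers of the noradrenergic programme, had near equal values on the sides. Bmp4, made by the embryonic dorsal aorta, had 134 on each side. Bmp2, its close relative, had 46 on the mutant side and 43 on the control side. Bmp7, which promotes dendrite growth in cultured sympathetic neurons, had 17 on the mutant side and 22 on the control side, a mean under 20. Bmp6, another ligand of the same subgroup, had 34 on the mutant side and 23 on the control side. Bmp6 and Bmp2 had means under 50, a range in which the central 95% of log2 ratios ran from -1.34 to 0.90.

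Bmp5 had 93 on the mutant side and 76 on the control side (log2 ratio 0.29). An antisense gene, Gm26903, covers 49.1% of its annotated exon length, so reads of Bmp5 may be shared with it. Gdf11, a ligand of activin receptors, had 196 on the mutant side and 180 on the control side, and Gdf9, known from the oocyte, had 35 on the mutant side and 36 on the control side. The other ligands of this group were low. Gdf10 had 19 on the mutant side and 12 on the control side and Gdf2, which encodes BMP9, a circulating ligand of endothelium, had 10 on the mutant side and 14 on the control side. Gdf3 and Gdf5 each had 3 on the mutant side and 9 on the control side. Genes on the opposite strand cover 40.3% of the annotated exon length of Gdf5 (Gm15557) and 11.5% of that of Bmp8b (Gm17244). Bmp8a, Bmp8b, Bmp10, Bmp15, Gdf6 and Gdf7 had at most 5 on either side, and Bmp8a and Bmp8b are close paralogs whose reads may be split between them. Gdf15 was listed at 0 on both sides, as was Gdf1, whose exons lie wholly within those of Cers1 in the annotation.

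**Figure D1:**
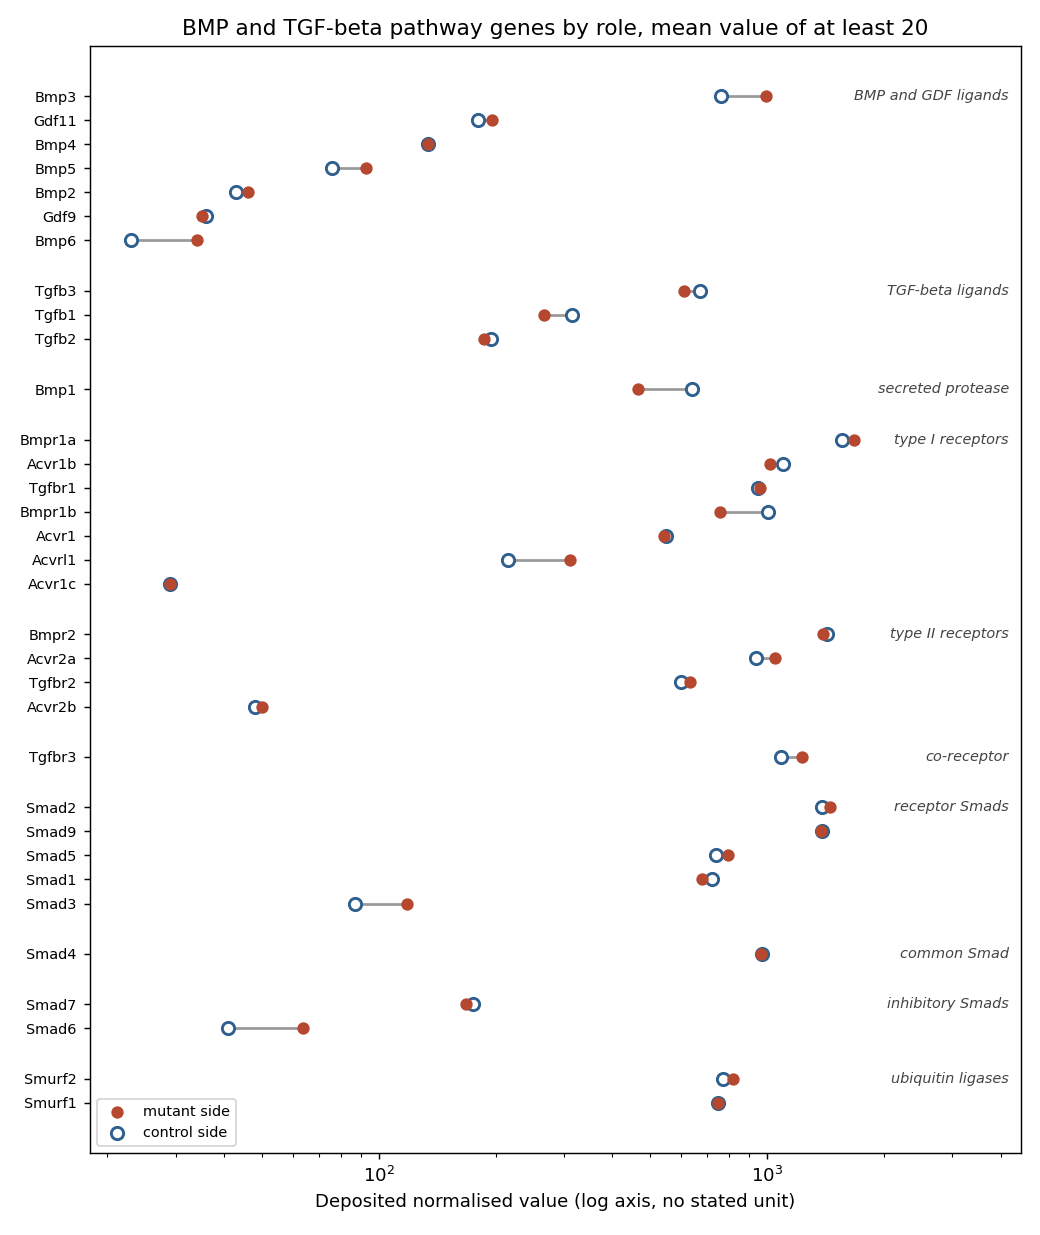
Deposited normalised values (log axis, no stated unit) of 33 pathway genes with a mean of at least 20, by role, on the mutant side (filled) and the control side (open), joined by a line. Most pairs nearly coincide, and the widest gaps belong to Bmp6, Smad6, Acvrl1, Bmp1, Smad3, Bmpr1b and Bmp3.

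All 3 TGF-beta ligands had slightly lower values on the mutant side, as had 5878 of the 12043 genes with a mean of at least 50. Each ligand lay within the central 95% of genes of like value. Tgfb1, the form made by many cell types including immune cells, had 267 on the mutant side and 314 on the control side (log2 ratio -0.23). Tgfb2 had 187 on the mutant side and 195 on the control side, and Tgfb3 had 612 on the mutant side and 671 on the control side. Per kilobase of annotated exon, Tgfb3 had the highest level of the 3 at a mean of 190, against 134 for Tgfb1 and 36.7 for Tgfb2. Activin subunits were near 0: Inhba had 5 on the mutant side and 4 on the control side, and Inhbb had 2 on the mutant side and 1 on the control side. Inhbe had 1 on each side. Inhbc, of whose annotated exon length an antisense gene, Gm47200, covers 14.4%, was listed at 0.

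The secreted antagonists Nog, Chrd and Grem1 each had a mean under 20. Noggin (Nog), which blocks Bmp2 and Bmp4, had 16 on the mutant side and 20 on the control side. Chordin (Chrd), an antagonist cleaved by the Bmp1 protease, had 8 on the mutant side and 14 on the control side, and Grem1 had 2 on the mutant side and 5 on the control side.

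Bmp1 shares the name of the BMPs but encodes a metalloprotease of the tolloid family, which cleaves chordin and the C-terminal ends of fibrillar procollagens. Bmp1 had 466 on the mutant side and 640 on the control side, a ratio of 0.728 (log2 ratio -0.46), below the central 95% of genes of like value. The authors' deposited table gives Bmp1 an unadjusted p of 0.0426. Its substrate gene Col1a1 had 1988 on the mutant side and 2643 on the control side (log2 ratio -0.41). The other fibrillar collagen genes among the fibroblast markers, Col3a1 (log2 ratio -0.27) and Col1a2 (log2 ratio -0.15), lay within the central 95% of genes of like value. The fibroblast markers as a list summed to 21219 on the mutant side and 22221 on the control side. Of their log2 ratios 5 of 6 were below 0, and that of Dcn was 0.24. The part of fibroblast RNA in the ratio of Bmp1 was not tested.

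The type I receptors, which carry the kinase that acts on Smads, held a gene on each edge of the distribution. Bmpr1b, the BMP receptor ALK6, had 759 on the mutant side and 1005 on the control side, a ratio of 0.755 (log2 ratio -0.40). It lay below the central 95% of genes of like value, and the authors' deposited table gives Bmpr1b an unadjusted p of 0.0347. Its paralog Bmpr1a, the BMP receptor ALK3, had 1672 on the mutant side and 1560 on the control side (log2 ratio 0.10), within that range for genes with a mean of 1000 to 2000.

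Acvrl1, the receptor ALK1 of endothelial cells, had 312 on the mutant side and 216 on the control side, a ratio of 1.44 (log2 ratio 0.53). It lay above the central 95% of genes with a mean of 200 to 500, whose upper end was 0.40, and the authors' deposited table gives Acvrl1 an unadjusted p of 0.0825. Its co-receptor endoglin (Eng) had 313 on the mutant side and 304 on the control side. The endothelial markers Pecam1, Cdh5, Kdr, Tek and Flt1 summed to 1202 on the mutant side and 1118 on the control side, a ratio of 1.08, with none at 0, 3 of 5 log2 ratios above 0 and the largest log2 ratio, 0.45, in Flt1. The part of endothelial RNA in the ratio of Acvrl1 was not tested.

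The other type I receptors were near equal on the sides. Acvr1 (ALK2), a BMP receptor, had 543 on the mutant side and 551 on the control side. Acvr1b (ALK4), an activin receptor, had 1016 on the mutant side and 1101 on the control side, and Tgfbr1 (ALK5), the TGF-beta receptor, had 962 on the mutant side and 950 on the control side. Acvr1c (ALK7) had 29 on each side. Per kilobase of exon, Bmpr1a stood highest of the type I receptors at a mean of 267, followed by Acvr1b at 240, with Bmpr1b, Acvr1 and Tgfbr1 between 149 and 151 and Acvrl1 at 69.5. On the mutant side alone Bmpr1b had 130 per kilobase and Acvr1 150, whereas on the control side Bmpr1b had 173 and Acvr1 152.

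Type II receptors, which bind ligand and switch on the type I kinase, differed little. Bmpr2 had 1398 on the mutant side and 1431 on the control side, and Acvr2a, shared by activins and BMPs, had 1052 on the mutant side and 937 on the control side (log2 ratio 0.17). Tgfbr2 had 635 on the mutant side and 600 on the control side, and Acvr2b, the paralog of Acvr2a, had 50 on the mutant side and 48 on the control side. Betaglycan (Tgfbr3), which presents TGF-beta to its receptors, had 1234 on the mutant side and 1090 on the control side (log2 ratio 0.18).

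**Figure D2:**
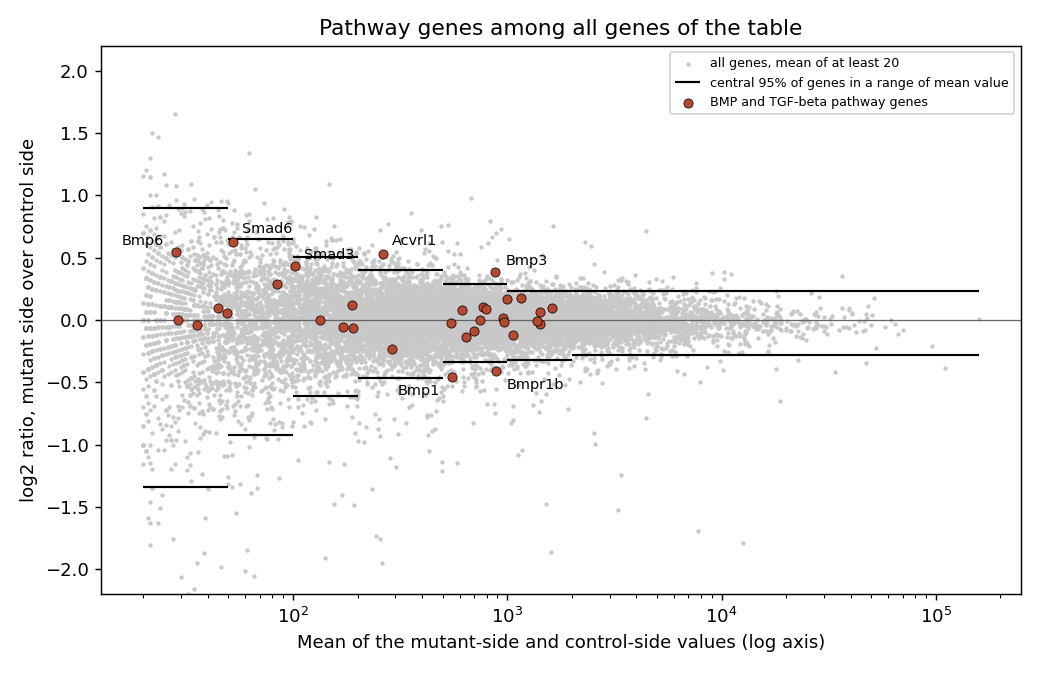
Log2 ratio of the mutant side over the control side against the mean value (log axis) for all genes with a mean of at least 20 (grey) and 33 pathway genes among them (red); black lines bound the central 95% of genes in each range of mean value, and 32 genes lie beyond the plotted log2 ratios of -2.2 to 2.2. Acvrl1 and Bmp3 lie above the lines and Bmp1 and Bmpr1b below, while Smad6 and Smad3 lie within.

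Of the Smads that BMP receptors phosphorylate, Smad9 had 1378 on the mutant side and 1385 on the control side. Smad5 had 794 on the mutant side and 740 on the control side, and Smad1 had 681 on the mutant side and 724 on the control side. Per kilobase of exon Smad9, also called Smad8, had the highest mean of these 3 at 257, against 136 for Smad1 and 107 for Smad5. Of the Smads of the TGF-beta and activin branch, Smad2 had 1450 on the mutant side and 1387 on the control side. Smad3 had 118 on the mutant side and 87 on the control side (log2 ratio 0.44), within the central 95% of genes with a mean of 100 to 200, whose upper end was 0.50. Per kilobase Smad2 had a mean of 165 and Smad3 of 20.1. Smad4, the partner of both branches, had 963 on the mutant side and 972 on the control side and a mean of 271 per kilobase. On the mutant side Bmpr1a had the highest level per kilobase of the 29 genes, at 277, against 269 for Smad4, while on the control side Smad4 was highest at 272, against 258 for Bmpr1a.

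The inhibitory Smads are induced by the pathway and block it. Smad6, which acts mainly on BMP signalling, had 64 on the mutant side and 41 on the control side, a ratio of 1.56 (log2 ratio 0.63). Its mean of 52.5 lay just over the minimum of 50, and of the 1067 genes with a mean of 50 to 100, 3.94% were higher by 1.5-fold. The authors' deposited table gives Smad6 an unadjusted p of 0.340. Smad7, which acts on both branches, had 168 on the mutant side and 175 on the control side. Smurf1 and Smurf2 are ubiquitin ligases that mark Smads and receptors for breakdown. Smurf1 had 749 on the mutant side and 747 on the control side, and Smurf2 had 817 on the mutant side and 770 on the control side.

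**Figure D3:**
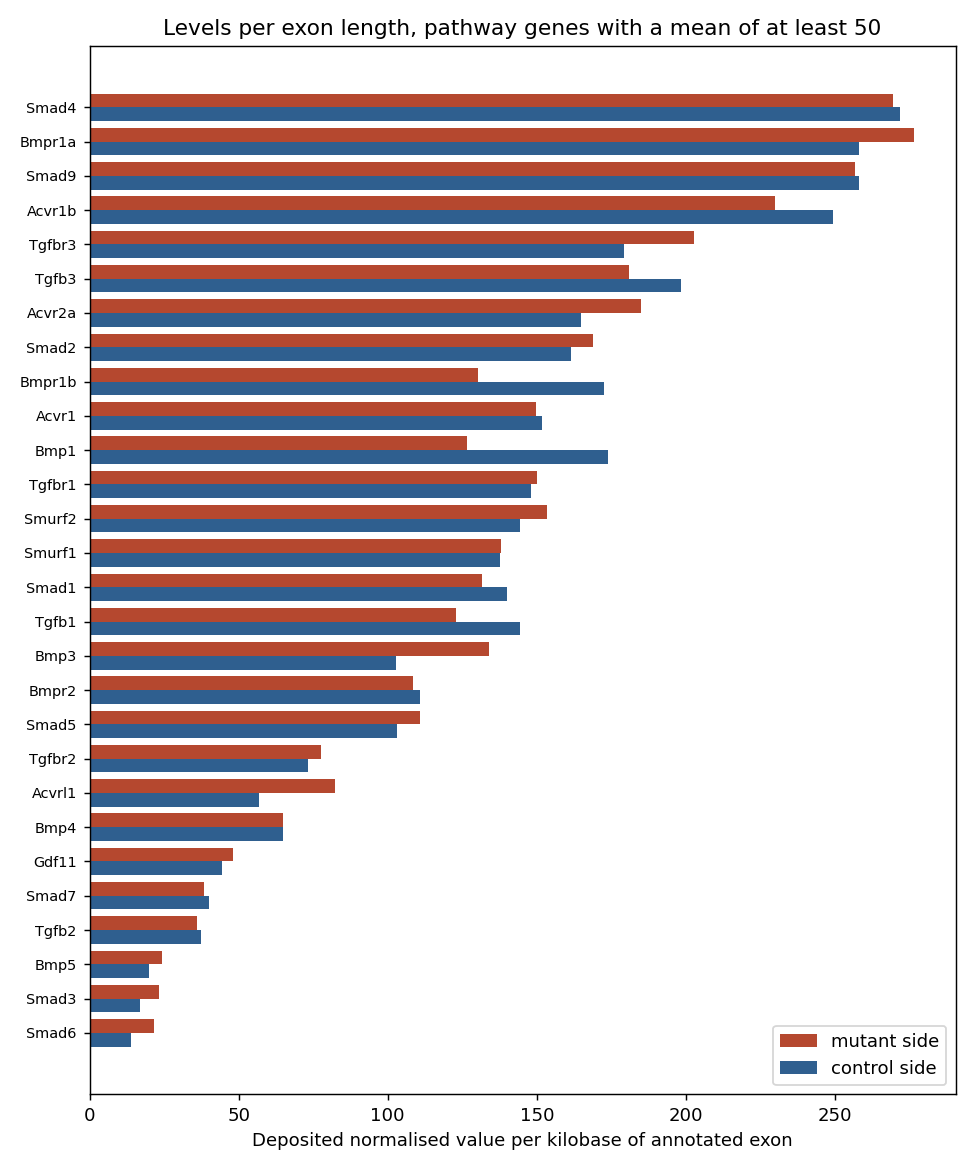
Deposited normalised value per kilobase of annotated exon (GENCODE M21) for 28 pathway genes with a mean of at least 50, on the mutant side (upper bar) and the control side (lower bar), in order of the mean. Smad4, Bmpr1a, Smad9 and Acvr1b stand highest, and Smad3 and Smad6 lowest.

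At the looser limit of a log2 ratio of 0.32 in size, 4 of the 29 genes were higher on the mutant side (13.8%), namely Smad6, Acvrl1, Smad3 and Bmp3, and 2 were lower (6.90%), namely Bmp1 and Bmpr1b. Among the 12043 genes, 4.35% were higher and 5.67% lower by this limit. Outside the central 95% of genes of like value lay 4 of the 29 (13.8%), where 5.03% of all genes with a mean of at least 50 did. At an unadjusted p under 0.05 in the authors' deposited table stood 3 of the 29, Bmp1, Bmp3 and Bmpr1b (10.3%), against 2.61% of the 12043 genes. These are counts of a few genes in a single comparison, with no replicate check.

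Other genes of the pathway were taken from a list of 72 genes by role, all of which matched a symbol, and 48 had a mean of at least 50. Of these, 0 were higher and 1 was lower by 1.5-fold (2.08%), against 0.681% higher and 1.47% lower among the 12043 genes. Their median log2 ratio was 0.02, against 0.00. Of the 48, 4 lay above the central 95% of genes of like value (Fst, Nbl1, Id2 and Id3) and 2 below (Fstl1 and Tll2). Among the 12043 genes, 5.03% lay outside. The authors' deposited table gives Fst, Nbl1, Fstl1 and Tll2, 4 of the list, an unadjusted p under 0.05, as it does 2.61% of the 12043 genes. These too are counts of a few genes with no replicate check. The gene lower by 1.5-fold was Tll2, a tolloid protease of the same family as Bmp1. Tll2 had 310 on the mutant side and 533 on the control side (log2 ratio -0.78). Its adjusted p in the authors' deposited table is 0.305. The third tolloid gene, Tll1, had 12 on each side.

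Secreted modulators lay in both directions. Fst, which encodes follistatin, the binding protein that blocks activins, had 1520 on the mutant side and 1149 on the control side (log2 ratio 0.40). Fstl1, a follistatin-like gene of connective tissue, had 1813 on the mutant side and 2563 on the control side (log2 ratio -0.50). The authors' deposited table gives Fst an adjusted p of 1 and Fstl1 an adjusted p of 0.182. Wfikkn2, which encodes an inhibitor of Gdf11 and myostatin, had 110 on the mutant side and 158 on the control side. Nbl1, a secreted BMP antagonist of the DAN family, had 10732 on the mutant side and 8960 on the control side (log2 ratio 0.26), above the central 95% of genes with a mean of at least 2000. The inhibin alpha gene Inha was the only further ligand with a mean of at least 50, with 95 on the mutant side and 139 on the control side (log2 ratio -0.54).

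Of the co-receptors and latency proteins 9 had a mean of at least 50, and their median log2 ratio was 0.00. The largest ratios were those of Rgma, a BMP co-receptor, with 118 on the mutant side and 84 on the control side, Bambi, a decoy receptor, with 164 on the mutant side and 123 on the control side, and the latent TGF-beta binding protein gene Ltbp1, with 210 on the mutant side and 192 on the control side. Of 20 intracellular regulators 19 had such a mean, and all 19 had a log2 ratio under 0.32 in size, as had 90.0% of the 12043 genes. Their largest log2 ratios were those of the repressor genes Tgif2 (0.28) and Tgif1 (0.22) and of Tab1, an adaptor of the kinase TAK1 (0.17).

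Of the transcripts that the pathway induces in many cells, 9 had a mean of at least 50, and 0 of these were higher or lower by 1.5-fold. Their median log2 ratio was 0.17, and 7 of the 9 had a log2 ratio above 0, as had 50.3% of the 12043 genes. Id1, Id2 and Id3, inhibitors of basic helix-loop-helix factors and common BMP targets, had 238, 666 and 1347 on the mutant side and 197, 544 and 1136 on the control side. Id2 (log2 ratio 0.291) and Id3 (log2 ratio 0.246) lay just above the central 95% of genes of like value, whose upper ends were 0.290 and 0.234. Id4 had 79 on the mutant side and 94 on the control side. The authors' deposited table gives each Id gene an adjusted p of 1. Cdkn1a, a cell cycle inhibitor gene, had 384 on the mutant side and 293 on the control side, and Ctgf, a matrix gene induced by TGF-beta, had 66 on the mutant side and 94 on the control side. Satellite glia and Schwann cell markers summed to 26132 on the mutant side and 23152 on the control side and macrophage markers to 2700 on the mutant side and 1963 on the control side, and their part in these values was not tested.

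**Figure D4:**
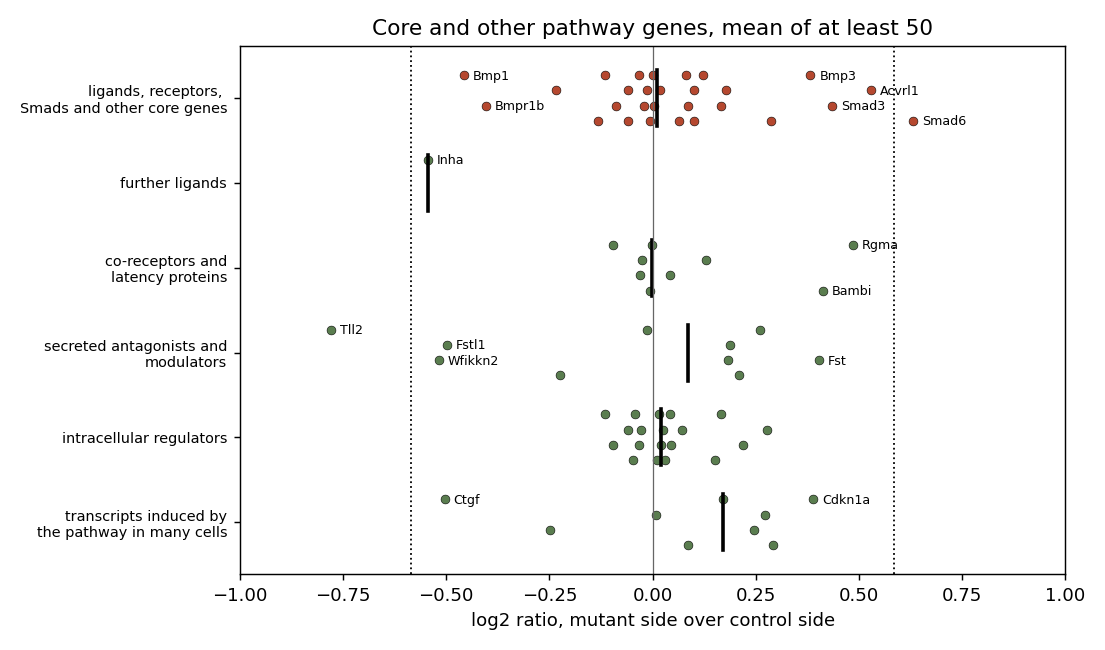
Log2 ratio of the mutant side over the control side for 28 core genes (red) and 48 other pathway genes by role (green) with a mean of at least 50; black bars are medians and dotted lines mark 1.5-fold. Only Smad6 and Tll2 lie beyond the dotted lines.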

How the data were processed

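RNA sequencing of 4 pooled samples, 1 per genotype, is represented by 1 table of a DESeq comparison that the authors deposited. Tools named in the submitters' processing notes, with no role, are HTSeq 0.5.4p1, SAMtools 0.1.19, TopHat2 2.0.8 and DESeq, and the build is mm9. Not given in the sources used here are the annotation, the strand setting and the number of libraries behind each column. By DESeq's column naming, per the file headers, the deposited control column and second group mean hold reads scaled by size factors, used here as a normalised score. In all 21937 genes the values under the heading mutant expression are the mean of both, and they were left out. The deposited fold ratio equals the second mean over the control in all 16990 genes with a fold (relative tolerance 1e-09). The authors' p-value columns were copied. Neither column was matched to a sample, and library depth is unknown.

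The log2 ratio used a pseudocount of 1, which understates ratios of low genes. The genes and lists were chosen with earlier results of these data known, and the motif words after the windows had been seen. A core gene with a mean of at least 50 and a neuronal marker are not reported here and are left out of the figures, though the core gene is in the counts. Other genes with a mean of at least 50 were named with both values, the rest by value or range. Of the list of other pathway genes, those past 1.5-fold the 3 largest absolute log2 ratios in each role and Id1 to Id4 were named, and Fst, Nbl1, Eng and Tll1 after their values were seen. Exon lengths and overlaps come from GENCODE M21 (GRCm38), and RefSeq windows from GRCm38.p6, neither of which is the build in the notes. The deposited values and their ratios do not depend on them. Levels per kilobase, their ranking and the overlaps do, and the annotation behind the deposited values is not given. The ratio rule was tried on simulated data only for changes larger than 1.5-fold and for genes well above a mean of 50. That trial therefore says nothing of genes near the limits, such as Smad6. Alternatives were other pseudocounts, minimum means, folds and an equal-sum scaling. Python 3.11.15, pandas 2.3.3, NumPy 2.4.6 and Matplotlib 3.10.9 were used.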

Additional observations from a re-analysis of the deposited data

How the results depend on the processing

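The count of core genes past 1.5-fold was 1 with a pseudocount of 0.5 or 5, a minimum mean of 20 and columns scaled to the same sum. It was 0 at 2-fold, 6 at a log2 ratio of 0.32 in size and 12 with no minimum (4 higher and 8 lower), and 0 with a minimum mean of 100, an alternative chosen after seeing the data, since Smad6 has a mean of 52.5. With a pseudocount of 5 the log2 ratio of Smad6 was 0.585, equal to the limit, so its count there rests on the rule including the limit. The median log2 ratio of the core genes stayed between 0.00 and 0.04 under every alternative run for it. The log2 ratio of each of the 29 core genes moved by less than 0.05 under both pseudocounts and the equal-sum scaling. The number of core genes with an unadjusted p under 0.05 in the authors' deposited table is 3, against 0 with an adjusted p under it. The count of other pathway genes past 1.5-fold was 1, and it was 2 with a minimum mean of 20, 13 with no minimum and 0 at 2-fold. No paired analysis was possible because each genotype is 1 pool and no column carries a replicate number. With 1 column a side, replicate error is unknown, and for means of 20 to 50 the central 95% of all genes' log2 ratios ran from -1.34 to 0.90.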

Other observations

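In RefSeq gene order 5 pairs of these genes are next to each other among protein-coding genes. Smad3 and Smad6, neighbours on chromosome 9, had 118 and 64 on the mutant side and 87 and 41 on the control side, so both had higher values on the mutant side. Acvrl1 and Acvr1b, neighbours on chromosome 15, lay in opposite directions, with log2 ratios of 0.53 and -0.12. Acvr1c and Acvr1 on chromosome 2 had log2 ratios of 0 and -0.02. The other pairs, Gdf10 with Gdf2 and Inhbe with Inhbc, had means under 20. This was looked at after the values were known, and no test was made.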
